A study of Mus musculus with 8 samples.

Results

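Tspan8pos and Tspan8neg medullary thymic epithelial cells (mTECs) of the MHCIIhi compartment were compared by RNA-seq. The members are the 2 libraries of Tspan8posMHCIIhi and the 2 libraries of Tspan8negMHCIIhi, selected by their labelled subset, and they make up 4 of the 8 libraries of the series. The other 4 libraries hold Tspan8pos and Tspan8neg cells of the MHCIIlo compartment. All cells came from thymi of wild-type BL6N6 mice of 4 to 6 weeks of age and were sorted by FACS, which excluded leukocytes, as CD45neg Epcampos CDR1neg cells, where CDR1 marks cortical epithelium. Both groups therefore share the epithelial gate and a high surface level of MHCII, the antigen-presenting complex used as a marker of mTEC maturation, and they differ in surface Tspan8. No gene was altered and no treatment was given. The labels call the 2 libraries of a group biological replicates, but whether they came from separate animals and how many animals were pooled was not stated, so p-values cover the spread between these libraries. The comparison asks which genes differ between mature mTECs that carry Tspan8 and those that do not.

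mTECs present self-antigens to developing T cells and express a wide range of tissue-restricted antigens, genes that elsewhere are used by 1 or a few tissues. Aire, a chromatin-associated regulator made by mature MHCIIhi mTECs, and Fezf2, a transcription factor, each regulate part of this expression. After the Aire stage some mTECs take on programs of other epithelia, among them cornifying keratinocytes, chemosensory Tuft cells, microfold cells and secretory cells, which are referred to as mimetic cells. Tspan8 is a tetraspanin, a membrane protein with several passes through the membrane, and is itself a tissue-restricted antigen.

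The 4 MHCIIhi libraries held between 4552711 and 7306157 counts, and between 21227 and 23570 genes had a count above 0. A floor of 3 counts corresponded to between 0.385 and 0.624 CPM, the count scaled to library size with trimmed-mean (TMM) factors, and 1 floor was used for all values. Log2 CPM correlated with r = 0.975 between the Tspan8neg replicates and r = 0.970 between the Tspan8pos replicates, and with r between 0.852 and 0.865 across the groups. Below, a pair of CPM values refers to replicates 1 and 2 of Tspan8negMHCIIhi, set against replicates 1 and 2 of Tspan8posMHCIIhi, and log2 fold changes are Tspan8pos over Tspan8neg within MHCIIhi. A gene was called higher or lower at an adjusted p under 0.01 in edgeR's quasi-likelihood test together with a log2 fold change of 1 or more in either direction. Where leaving out 1 library moved a count of called list members by over 1.5 times, the counts are given without Tspan8neg 1, Tspan8neg 2, Tspan8pos 1 and Tspan8pos 2, in this order and within MHCIIhi.

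The sort was checked first. Tspan8, on which the cells were sorted, was at 7.07 and 8.72 against 404 and 352 CPM, with no overlap between the groups, which is a check of the sort and no finding. Epcam, the epithelial adhesion molecule of the gate, was present in all 4 libraries at 554 and 508 against 866 and 754 CPM. H2-Ab1, a chain of the MHCII complex used for the sort, was at 4988 and 5098 against 2431 and 2619 CPM in these cells and at 2074 and 1699.9 against 518 and 489 CPM in the MHCIIlo libraries of the same Tspan8 groups, so that each MHCIIhi library lay above the MHCIIlo libraries of its own Tspan8 group. The MHCIIhi Tspan8pos libraries nevertheless held less H2-Ab1 RNA than their Tspan8neg counterparts (log2 fold change -0.998 ± 0.12 (SE), edgeR adjusted p = 8.96e-05), just inside the fold limit of a call. Aire was at 2658 and 2476 against 402 and 541 CPM. Fezf2 was at 435 and 416 against 299 and 346 CPM, -0.40 on the log2 scale and without a call (edgeR adjusted p = 0.0723).

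Of 17006 tested genes, 1876 were called higher (11.0%) and 1267 lower (7.45%) in Tspan8posMHCIIhi mTECs. Every count of called list members below is to be read beside these 2 shares. The lists were chosen with earlier results of these data known, so a difference from these shares is a description and no test. The median log2 fold change of all tested genes was -0.027. Higher genes made up 59.7% of the calls, and 47.9% with library totals in place of TMM, a scaling that moved the median by -0.18. Without Tspan8neg 1, Tspan8neg 2, Tspan8pos 1 and Tspan8pos 2 in turn, 733, 732, 565 and 710 genes were called lower and 1312, 1357, 1537 and 1605 higher. The groups did not overlap for any of the 3143 called genes, against 73.8% of all tested genes, so the absence of overlap is not repeated below. The median size of a call was 1.85 among higher genes and 1.79 among lower genes on the log2 scale, and 136 higher genes and 44 lower genes passed a log2 fold change of 4. Higher genes took 7.10 and 7.49% of all counts in the Tspan8neg libraries and 25.4 and 25.2% in the Tspan8pos libraries, and lower genes 10.2% in both Tspan8neg libraries and 3.09 and 3.31% in the Tspan8pos libraries. A mean of at least 100 CPM in the higher group was reached by 649 of the higher and 226 of the lower genes. Protein-coding genes made up 95.9% of the higher, 95.3% of the lower and 90.6% of all tested genes. All libraries of the lower group lay at or under the floor for 36 higher and 70 lower genes, and 496 higher and 324 lower genes have exons that overlap a gene on the opposite strand. In these bulk libraries, more cells of a type and more RNA per cell cannot be told apart.

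**Figure D1:**
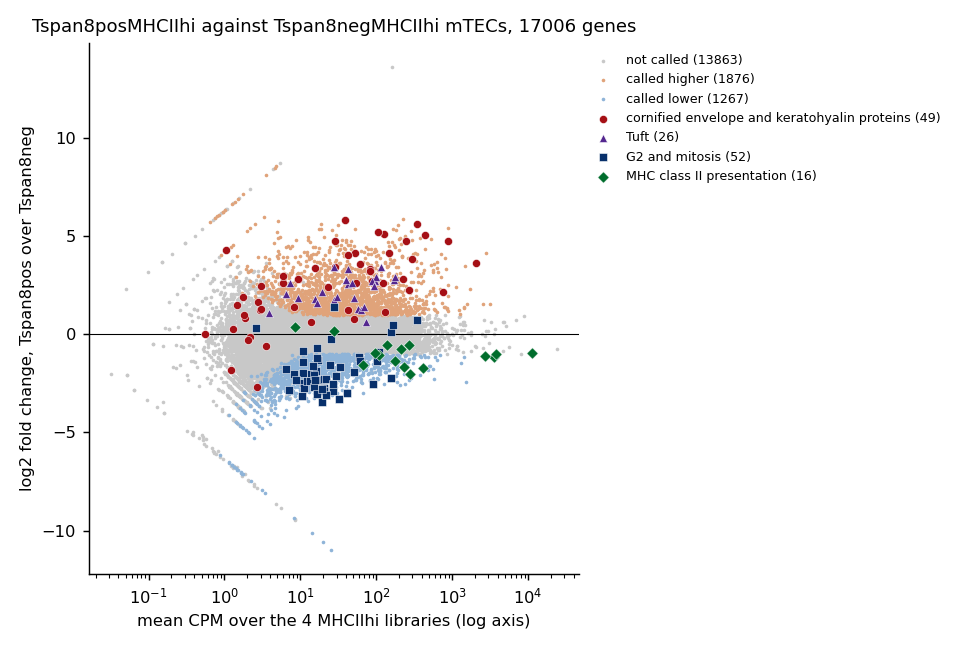
Log2 fold change of Tspan8posMHCIIhi over Tspan8negMHCIIhi (vertical axis) against mean CPM of the 4 libraries (horizontal log axis) for the 17006 tested genes, with called genes in colour and 4 gene lists overlaid. Tuft genes and most cornified envelope genes sit above 0 over a wide range of levels, and G2 and mitosis genes and MHC class II genes sit mostly below it.

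Genes of the cornified layer of stratified epithelium were raised in Tspan8posMHCIIhi mTECs. Suprabasal keratins are filament proteins that replace basal keratins as keratinocytes differentiate, and they were listed together with hyperproliferative keratins. This list had 12 of 16 tested members called higher and 0 lower (median log2 fold change 3.66), and its summed level was 462 and 553 against 7309 and 6534 CPM. Krt10 was at 57.4 and 82.8 against 1955 and 1687 CPM (log2 fold change 4.69 ± 0.24 (SE), edgeR adjusted p = 2.96e-07), Krt1 at 12.9 and 25.1 against 413 and 353 CPM and Krt6a at 10.4 and 7.56 against 386 and 316 CPM (log2 fold change 5.31 ± 0.29 (SE), edgeR adjusted p = 3.96e-07). Both Tspan8pos libraries lay more than an order of magnitude above both Tspan8neg libraries for these 3 keratins. Krt80 was among the genes with the smallest adjusted p (12.5 and 13.2 against 254 and 218 CPM, log2 fold change 4.19 ± 0.16 (SE), edgeR adjusted p = 1.75e-07). Basal and simple epithelial keratins had 6 of 9 tested members called higher and 0 lower (median log2 fold change 1.39). Krt5, a keratin of basal cells, was higher (272 and 242 against 1518 and 1460.3 CPM, log2 fold change 2.53 ± 0.18 (SE), edgeR adjusted p = 1.56e-06), and so was Krt17 (1376 and 1240.0 against 3759.5 and 3886 CPM). Krt14, the usual partner of Krt5, was at 182 and 151 against 225 and 226 CPM (edgeR adjusted p = 0.158).

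Of the cornified envelope and keratohyalin proteins, which build the cross-linked shell of dead keratinocytes, the list had 31 of 49 tested members called higher and 1 lower (median log2 fold change 2.63, and 0, 0, 0 and 0 lower without each library in turn), beside 11.0 and 7.45% of all genes. Ivl, which encodes involucrin, an early envelope protein, was at 9.15 and 5.51 against 286 and 210.5 CPM (log2 fold change 5.13 ± 0.28 (SE), edgeR adjusted p = 3.37e-07). Krtdap, which encodes a secreted keratinocyte protein, was at 10.4 and 16.8 against 726 and 630.1 CPM (log2 fold change 5.604 ± 0.22 (SE), edgeR adjusted p = 1.75e-07), and Sbsn, which encodes suprabasin, at 23.1 and 26.5 against 845 and 852 CPM (log2 fold change 5.09 ± 0.19 (SE), edgeR adjusted p = 1.75e-07). Dmkn, which encodes dermokine, was at 51.99 and 74.9 against 1737 and 1670.0 CPM, and Sbsn, Dmkn and Krtdap lie within 1 stretch of chromosome 7. Values were low in both Tspan8neg libraries and high in both Tspan8pos libraries for each of these genes, and separate groups were found for every called gene. The filaggrin family, which bundles keratin filaments, was represented by Flg2 (1.04 and 1.54 against 70.9 and 81.7 CPM), Flg (15.4 and 16.1 against 297 and 268 CPM) and Rptn (282 and 339.7 against 4019 and 3592 CPM, log2 fold change 3.61 ± 0.21 (SE), edgeR adjusted p = 4.74e-07). Lce3b, a late envelope gene, was the only list member called lower, at 3.33 and 5.896 against 0.797 and 0.6096 CPM. The call was lost for Lce3b without any 1 of the 4 libraries (edgeR adjusted p up to 0.194).

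Promoters of 4 of these genes are shown because all 4 genes were higher and each window holds an AP-1 element, the 7-base site of Fos and Jun dimers. The sequences are from RefSeq on GRCm38.p6, run from 150 bases before to 5 bases after the start on the gene's strand, and carry the element in capitals. Sbsn lies at chr7:30751321-30751475 on the plus strand, Dmkn (the first of 3 listed promoters) at chr7:30763606-30763760 on the plus strand, Krtdap at chr7:30787755-30787909 on the plus strand and Ivl at chr3:92573731-92573885 on the minus strand.
Sbsn: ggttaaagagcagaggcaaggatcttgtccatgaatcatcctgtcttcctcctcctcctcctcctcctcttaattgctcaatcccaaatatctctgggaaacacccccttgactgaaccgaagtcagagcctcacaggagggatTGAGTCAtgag
Dmkn: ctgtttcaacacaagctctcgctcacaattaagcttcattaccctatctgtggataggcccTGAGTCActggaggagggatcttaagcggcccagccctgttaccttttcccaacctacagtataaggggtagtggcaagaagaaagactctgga
Krtdap: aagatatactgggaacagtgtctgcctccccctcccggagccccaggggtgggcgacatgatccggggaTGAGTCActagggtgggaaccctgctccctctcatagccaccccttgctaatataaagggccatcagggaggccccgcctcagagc
Ivl: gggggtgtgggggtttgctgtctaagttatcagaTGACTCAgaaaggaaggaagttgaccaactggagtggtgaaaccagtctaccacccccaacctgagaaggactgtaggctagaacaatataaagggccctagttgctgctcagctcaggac
The element (TGACTCA or TGAGTCA, the reverse complements of each other, so both strands are searched) begins 6 bases before the start in Sbsn, 89 in Dmkn, 81 in Krtdap and 116 in Ivl. In windows of 250 bases before to 50 after the start, it was found in 12 of 42 envelope genes with a listed promoter (28.6%), in 5.31% of 12468 tested genes, in 8.42% of the genes called higher and in 4.97% of those called lower. A match describes letters and is no evidence of binding. Fos and Jun themselves were at 855 and 916 against 1531 and 1819 CPM and 1026 and 1201 against 1499 and 1963 CPM, below the fold limit.

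Lipid enzymes of the skin barrier had 24 of 26 tested members called higher and 0 lower (median log2 fold change 2.23). They included Cers3, which makes the ceramides of very long chains (2.08 and 1.67 against 56.8 and 46.7 CPM, log2 fold change 4.80 ± 0.27 (SE), edgeR adjusted p = 4.74e-07), Abca12, the lipid transporter of lamellar granules (3.12 and 6.28 against 113 and 76.8 CPM), and the lipoxygenase gene Aloxe3 (13.9 and 13.8 against 163 and 124 CPM). Alox12e had overlapping groups at 1023 and 973 against 985 and 1002 CPM. Kallikreins, serine proteases that cut desmosomes as corneocytes are shed, had 8 of 12 tested members called higher and 1 lower (median log2 fold change 2.20, and 1, 0, 0 and 1 lower without each library in turn). Klk13 was at 9.57 and 13.3 against 186 and 186 CPM (log2 fold change 3.99 ± 0.19 (SE), edgeR adjusted p = 2.34e-07) and Klk7 at 26.2 and 33.3 against 276 and 231 CPM, while Klk4, which acts in tooth enamel, was lower (30.8 and 51.3 against 8.56 and 13.2 CPM, log2 fold change -1.92 ± 0.31 (SE), edgeR adjusted p = 0.000573). Their inhibitors of the Spink and serpin B families had 13 of 20 tested members called higher and 1 lower (median log2 fold change 2.21, and 1, 0, 0 and 1 lower without each library in turn). Spink5, which encodes the kallikrein inhibitor LEKTI, was at 28.3 and 52.3 against 1856 and 1592 CPM (log2 fold change 5.40 ± 0.32 (SE), edgeR adjusted p = 5.47e-07), and Serpinb2 at 102 and 119 against 1345 and 982 CPM. The call was lost for Klk4 without Tspan8neg 2 or Tspan8pos 1 (edgeR adjusted p up to 0.0165).

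Desmosomes, the junctions that hold keratin filaments, had 10 of 15 tested members called higher and 0 lower (median log2 fold change 1.28). Dsg3, the skin desmoglein that is the antigen of pemphigus vulgaris, was at 1.66 and 3.85 against 91.4 and 63.6 CPM (log2 fold change 4.70 ± 0.30 (SE), edgeR adjusted p = 8.87e-07), Dsp, which encodes desmoplakin, at 606 and 544 against 3196 and 2516 CPM (log2 fold change 2.31 ± 0.20 (SE), edgeR adjusted p = 6.91e-06), and Cdsn, which encodes corneodesmosin, at 12.5 and 11.8 against 141 and 151 CPM. Tight junction genes had 9 of 24 tested members called higher and 1 lower (median log2 fold change 0.91, and 1, 0, 0 and 0 lower without each library in turn). Cldn4 was higher (887 and 700.4 against 2278 and 1871 CPM, log2 fold change 1.39 ± 0.19 (SE), edgeR adjusted p = 0.000194) and Cldn13 lower (47.6 and 51.1 against 14.5 and 14.6 CPM). Connexins and pannexins went both ways, with 4 of 14 tested members called higher and 2 lower (median log2 fold change -0.65, and 2, 1, 1 and 1 lower without each library in turn), the higher ones being gap junction genes of skin such as Gjb6 (11.02 and 12.3 against 101 and 88.6 CPM), and the lower ones Gja1 (162 and 177 against 74.7 and 64.6 CPM) and Gja4 (90.9 and 93.1 against 32.7 and 38.8 CPM). Genes that anchor cells to the basement membrane had 0 of 18 tested members called higher and 2 lower (median log2 fold change -0.38), and the lower ones were the nidogens Nid1 (50.7 and 53.1 against 16.5 and 15.04 CPM) and Nid2 (63.2 and 69.1 against 19.1 and 16.9 CPM, log2 fold change -1.88 ± 0.22 (SE), edgeR adjusted p = 5.46e-05). Annexins had 4 of 12 tested members called higher and 0 lower (median log2 fold change 0.50), among them Anxa1 (108 and 97.3 against 1727 and 1290.0 CPM, log2 fold change 3.88 ± 0.26 (SE), edgeR adjusted p = 1.02e-06), and S100 genes 1 of 14 tested members called higher and 1 lower (median log2 fold change 0.21). Gasdermins and caspases, which carry out pore formation and cell death, had 3 of 19 tested members called higher and 3 lower (median log2 fold change -0.052, and 1, 0, 0 and 1 lower without each library in turn). Casp14, the caspase of cornification, was higher (6.65 and 7.56 against 41.02 and 36.8 CPM), and Gsdmc2, Gsdmc3 and Gsdmc4, near-identical copies whose reads may be split between them, were lower, with Gsdmc2 at 19.5 and 24.9 against 6.17 and 4.67 CPM, Gsdmc3 at 16.01 and 21.4 against 6.77 and 3.45 CPM and Gsdmc4 at 13.3 and 15.9 against 2.59 and 4.06 CPM. Leaving out 1 library ended the call for Cldn13 and Gja1 without Tspan8neg 2, Tspan8pos 1 or Tspan8pos 2 (edgeR adjusted p up to 0.031), Gsdmc2 and Gsdmc3 without any 1 of the 4 libraries (edgeR adjusted p up to 0.0766) and Gsdmc4 without Tspan8neg 2 or Tspan8pos 1 (edgeR adjusted p up to 0.0256).

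**Figure D2:**
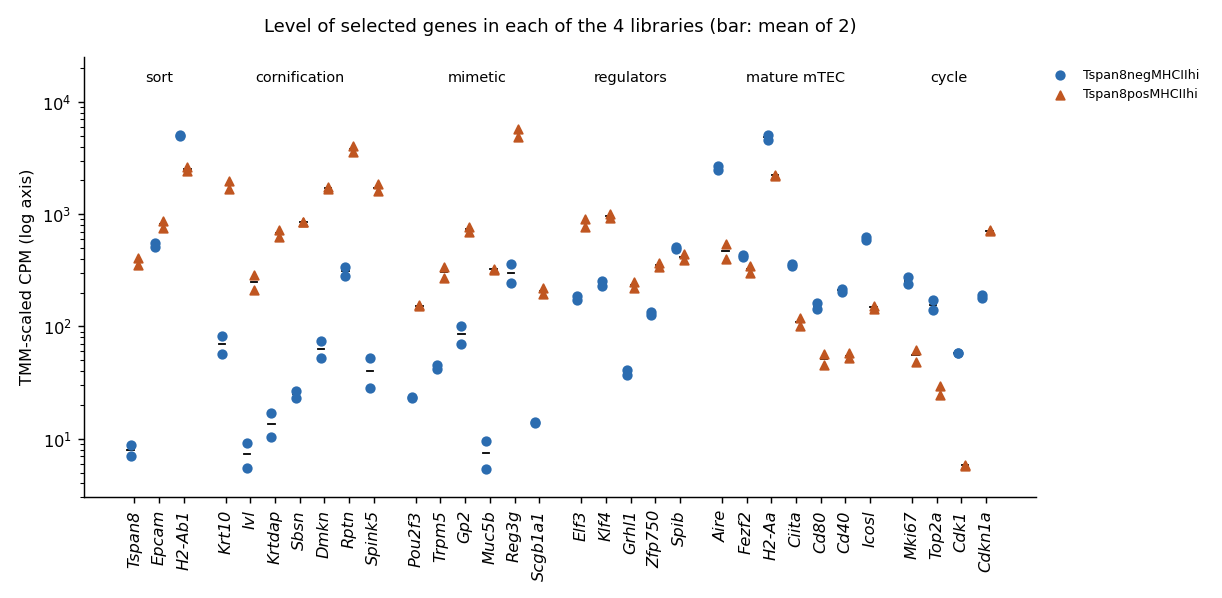
CPM of 32 genes in each of the 4 MHCIIhi libraries (log axis), with points for single libraries of Tspan8negMHCIIhi and Tspan8posMHCIIhi and a bar at the mean of 2. Krt10, Spink5, Reg3g and Trpm5 are separated by wide gaps, whereas the points of Fezf2 and Spib lie close together.

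Transcription factors of terminal epithelial differentiation had 21 of 32 tested members called higher and 2 lower (median log2 fold change 1.41, and 1, 1, 1 and 1 lower without each library in turn). Irx2, an Iroquois factor, was at 1.04 and 0.513 against 31.1 and 41.7 CPM (log2 fold change 5.61 ± 0.38 (SE), edgeR adjusted p = 1.27e-06). Grhl1, a grainyhead factor that controls desmosomal genes, was at 36.6 and 40.8 against 251 and 219 CPM (log2 fold change 2.60 ± 0.17 (SE), edgeR adjusted p = 1.01e-06), and Klf4, a factor of epidermal barrier formation, at 227 and 255 against 931 and 993 CPM (log2 fold change 2.00 ± 0.15 (SE), edgeR adjusted p = 2.38e-06). Prdm1, Ovol1, Cebpa and Zfp750, all known in keratinocyte differentiation, were higher by 2.64, 2.25, 2.12 and 1.43 on the log2 scale. Irx4 (11.4 and 11.7 against 1.19 and 1.22 CPM) and Maf (23.7 and 33.1 against 11.6 and 15.8 CPM) were lower. Ets factors, which share a GGAA core, had 5 of 24 tested members called higher and 0 lower (median log2 fold change -0.049, and 3, 3, 4 and 3 higher without each library in turn). Elf3, an epithelial Ets factor, was at 173 and 188 against 775 and 908 CPM (log2 fold change 2.22 ± 0.17 (SE), edgeR adjusted p = 2.70e-06), Ehf at 103 and 114 against 346 and 298 CPM (log2 fold change 1.57 ± 0.14 (SE), edgeR adjusted p = 7.50e-06) and Spdef, a goblet cell factor, at 3.33 and 4.87 against 13.7 and 22.8 CPM. Spib, the Ets factor of microfold cells, was at 486 and 506 against 387 and 445 CPM and was not called (edgeR adjusted p = 0.237). The Kruppel-like factors had 3 of 14 tested members called higher and 0 lower (median log2 fold change 0.40), with Klf5 at 28.1 and 26.02 against 199 and 145 CPM and Klf3 at 25.4 and 27.2 against 141 and 118 CPM. With 1 library left out, the call was lost for Maf without any 1 of the 4 libraries (edgeR adjusted p up to 0.096) and Spdef without Tspan8neg 1, Tspan8neg 2 or Tspan8pos 2 (edgeR adjusted p up to 0.0558).

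Factors of thymic epithelial identity had 0 of 15 tested members called higher and 0 lower (median log2 fold change -0.46). Foxn1, the master regulator of thymic epithelium, was at 208 and 220.5 against 121 and 129 CPM (log2 fold change -0.78 ± 0.13 (SE), edgeR adjusted p = 0.000713), inside the fold limit, and Relb at 450.03 and 399 against 254 and 265 CPM. Aire, Fezf2 and their partners had 0 of 27 tested members called higher and 5 lower (median log2 fold change 0.11, and 5, 5, 3 and 3 lower without each library in turn), and the sign of this median turned to -0.074 with library totals in place of TMM. Besides Aire (log2 fold change -2.44 ± 0.25 (SE), edgeR adjusted p = 2.28e-05) and the cell cycle gene Top2a (171 and 140.3 against 24.7 and 29.5 CPM), the lower members were Sirt1 (386 and 384 against 153 and 139.6 CPM), a deacetylase that acts on Aire, Parp1 (102 and 95.5 against 37.6 and 40.2 CPM) and Prmt5 (54.7 and 58.2 against 28.7 and 27.6 CPM). Enzymes of DNA methylation had 0 of 8 tested members called higher and 3 lower (median log2 fold change -0.84), namely Uhrf1 (137 and 113 against 28.9 and 32.5 CPM, log2 fold change -2.02 ± 0.21 (SE), edgeR adjusted p = 2.70e-05), Tet1 (17.3 and 14.2 against 4.18 and 4.47 CPM) and Dnmt3l (46.999 and 38.6 against 10.6 and 12.2 CPM), whose exons overlap Aire on the opposite strand. Immediate early genes, which respond to stimulation and to cell isolation, had 5 of 17 tested members called higher and 0 lower (median log2 fold change 0.61). Egr3 was at 19.96 and 26.02 against 151 and 181 CPM (log2 fold change 2.84 ± 0.18 (SE), edgeR adjusted p = 8.20e-07) and Btg2 at 205 and 252 against 1127 and 1156 CPM. The part of cell isolation in these values was not tested. The call was lost for Sirt1 and Prmt5 without Tspan8pos 1 or Tspan8pos 2 (edgeR adjusted p up to 0.0211) and Tet1 without Tspan8neg 1, Tspan8pos 1 or Tspan8pos 2 (edgeR adjusted p up to 0.0282).

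Tuft cells are chemosensory epithelial cells that use a taste signalling cascade and release IL-25 and eicosanoids. Their genes had 24 of 26 tested members called higher and 0 lower (median log2 fold change 2.30). Pou2f3, the factor that specifies the lineage, was at 23.3 and 23.1 against 156 and 151 CPM (log2 fold change 2.72 ± 0.17 (SE), edgeR adjusted p = 6.59e-07) and the marker kinase Dclk1 at 22.04 and 28.5 against 161 and 178 CPM. The cation channel of the taste cascade, Trpm5, was at 42.01 and 45.4 against 269 and 335 CPM (log2 fold change 2.79 ± 0.18 (SE), edgeR adjusted p = 9.46e-07), its G protein subunit Gnat3 at 2.704 and 10.6 against 31.5 and 33.1 CPM, and the cytoskeletal gene Avil at 40.1 and 41.9 against 289 and 336 CPM (log2 fold change 2.93 ± 0.16 (SE), edgeR adjusted p = 4.26e-07). Eicosanoid genes included Alox5ap (4.37 and 4.87 against 40.4 and 61.4 CPM) and Hpgds (36.6 and 40.2 against 113 and 88.8 CPM), the acetylcholine enzyme Chat was at 2.495 and 5.26 against 9.16 and 20.5 CPM, and the cytokine Il25 was at 2.704 and 1.54 against 12.1 and 12.6 CPM (log2 fold change 2.61 ± 0.35 (SE), edgeR adjusted p = 0.000158). The groups did not overlap for these genes, which holds for every called gene and for 73.8% of all tested genes. Plcg2, a phospholipase on the list, was not called (55.7 and 59.7 against 85.6 and 92.2 CPM). Of 31 bitter taste receptors, which detect ligands upstream of this cascade, 12 could be tested, 11 of these had a positive log2 fold change and 0 passed the call, with 21 at or under the floor in every MHCIIhi library. Their summed level was 1.04 and 4.102 against 8.56 and 12.8 CPM, and a difference in single receptors was not detectable at this depth. Leaving out 1 library ended the call for Chat without Tspan8neg 1, Tspan8neg 2 or Tspan8pos 2 (edgeR adjusted p up to 0.0759). On the log2 scale, Gnat3 stood at 3.49 without Tspan8neg 2.

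Microfold cells take up particles in gut epithelium, and their genes had 9 of 15 tested members called higher and 1 lower (median log2 fold change 1.51). The uptake receptor Gp2 was at 69.7 and 100.2 against 699.6 and 768 CPM (log2 fold change 3.10 ± 0.23 (SE), edgeR adjusted p = 2.05e-06), Pglyrp1, an antibacterial protein, at 50.7 and 63.3 against 469 and 569.5 CPM (log2 fold change 3.18 ± 0.20 (SE), edgeR adjusted p = 6.82e-07), and the chemokine Ccl20 at 49.3 and 62.3 against 203 and 242 CPM. Icosl, which is also on the list of costimulatory ligands, was the lower member. Goblet and secretory genes had 25 of 32 tested members called higher and 0 lower (median log2 fold change 2.88) and a summed level of 6349 and 6854 against 22013 and 22937 CPM. Muc5b, a gel-forming mucin of airways, was at 5.41 and 9.48 against 319 and 325 CPM (log2 fold change 5.38 ± 0.27 (SE), edgeR adjusted p = 2.54e-07), Agr2, a chaperone of mucin folding, at 1.87 and 3.33 against 74.3 and 78.4 CPM (log2 fold change 4.79 ± 0.26 (SE), edgeR adjusted p = 3.23e-07), Clca1 at 28.9 and 39.2 against 984 and 1044 CPM and the club cell gene Scgb1a1 at 13.7 and 13.97 against 221 and 195 CPM. Fcgbp, a mucus protein, stayed within the fold limit (5204 and 5398 against 8737 and 8679.7 CPM). Antimicrobial and acute phase genes had 12 of 21 tested members called higher and 0 lower (median log2 fold change 1.25). Reg3g, a C-type lectin that kills bacteria, was at 242 and 358 against 4848 and 5726 CPM (log2 fold change 4.14 ± 0.28 (SE), edgeR adjusted p = 1.29e-06), and Saa3 was at 122 and 171 against 1319 and 1665 CPM. The call was lost for Ccl20 without Tspan8neg 1, Tspan8neg 2 or Tspan8pos 2 (edgeR adjusted p up to 0.0304).

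Lists of other mimetic programs are read beside the 11.0% of all tested genes called higher and the 7.45% called lower. Enterohepatic genes had 5 of 24 tested members called higher and 2 lower (median log2 fold change 0.46, and 3, 4, 4 and 4 higher without each library in turn, and 2, 1, 1 and 2 lower without each library in turn). Saa1 (54.5 and 62.8 against 665 and 787 CPM, log2 fold change 3.63 ± 0.25 (SE), edgeR adjusted p = 1.42e-06), the intestinal lectin Lgals4 (39.9 and 45.8 against 350.1 and 392 CPM) and the nuclear receptor Hnf4a (6.24 and 8.84 against 21.1 and 17.3 CPM) were higher, while the urea cycle enzyme Cps1 (12.9 and 18.1 against 0.996 and 2.84 CPM, log2 fold change -3.01 ± 0.57 (SE), edgeR adjusted p = 0.00169) was lower. Ionocyte genes had 2 of 11 tested members called higher and 0 lower (median log2 fold change -0.37), and the chloride channel Cftr was at 24.3 and 18.8 against 119 and 90.8 CPM (log2 fold change 2.29 ± 0.22 (SE), edgeR adjusted p = 1.20e-05). Ciliated cell genes had 2 of 22 tested members called higher and 2 lower (median log2 fold change -0.094, and 0, 2, 1 and 0 higher without each library in turn, and 1, 1, 1 and 2 lower without each library in turn). Foxj1, the factor that directs cilia formation, was at 63.4 and 79.5 against 81.5 and 108 CPM and was not called, whereas Mcidas, an early factor of multiciliated cells, was lower (13.5 and 9.998 against 0 and 1.22 CPM). Muscle genes had 1 of 22 tested members called higher and 7 lower (median log2 fold change -1.63, and 0, 0, 1 and 0 higher without each library in turn). Ttn, which encodes titin, was at 261 and 243 against 51.98 and 47.7 CPM (log2 fold change -2.34 ± 0.20 (SE), edgeR adjusted p = 7.48e-06) and the embryonic myosin Myh3 at 47.4 and 52.8 against 8.17 and 9.96 CPM (log2 fold change -2.47 ± 0.23 (SE), edgeR adjusted p = 1.27e-05), and the higher member was the troponin gene Tnni2 (3.12 and 3.85 against 12.5 and 15.04 CPM). Neuroendocrine genes had 1 of 21 tested members called higher and 4 lower (median log2 fold change -0.51, and 0, 1, 0 and 1 higher without each library in turn), with the lineage factor Insm1 (164 and 159 against 49.2 and 53.6 CPM, log2 fold change -1.65 ± 0.20 (SE), edgeR adjusted p = 8.06e-05) lower and Scg5 (19.8 and 25.1 against 52.8 and 46.1 CPM) higher. With 1 library left out, the call was lost for Hnf4a without any 1 of the 4 libraries (edgeR adjusted p up to 0.0959), Cps1 without Tspan8neg 2 or Tspan8pos 1 (edgeR adjusted p up to 0.037), Mcidas without Tspan8neg 1, Tspan8neg 2 or Tspan8pos 1 (edgeR adjusted p up to 0.0219), Tnni2 without Tspan8neg 1, Tspan8neg 2 or Tspan8pos 2 (edgeR adjusted p up to 0.0228) and Scg5 without Tspan8neg 1 or Tspan8pos 1 (edgeR adjusted p up to 0.0275). Mcidas had 0 counts in the remaining library without Tspan8pos 2, so that no fold change is given.

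**Figure D3:**
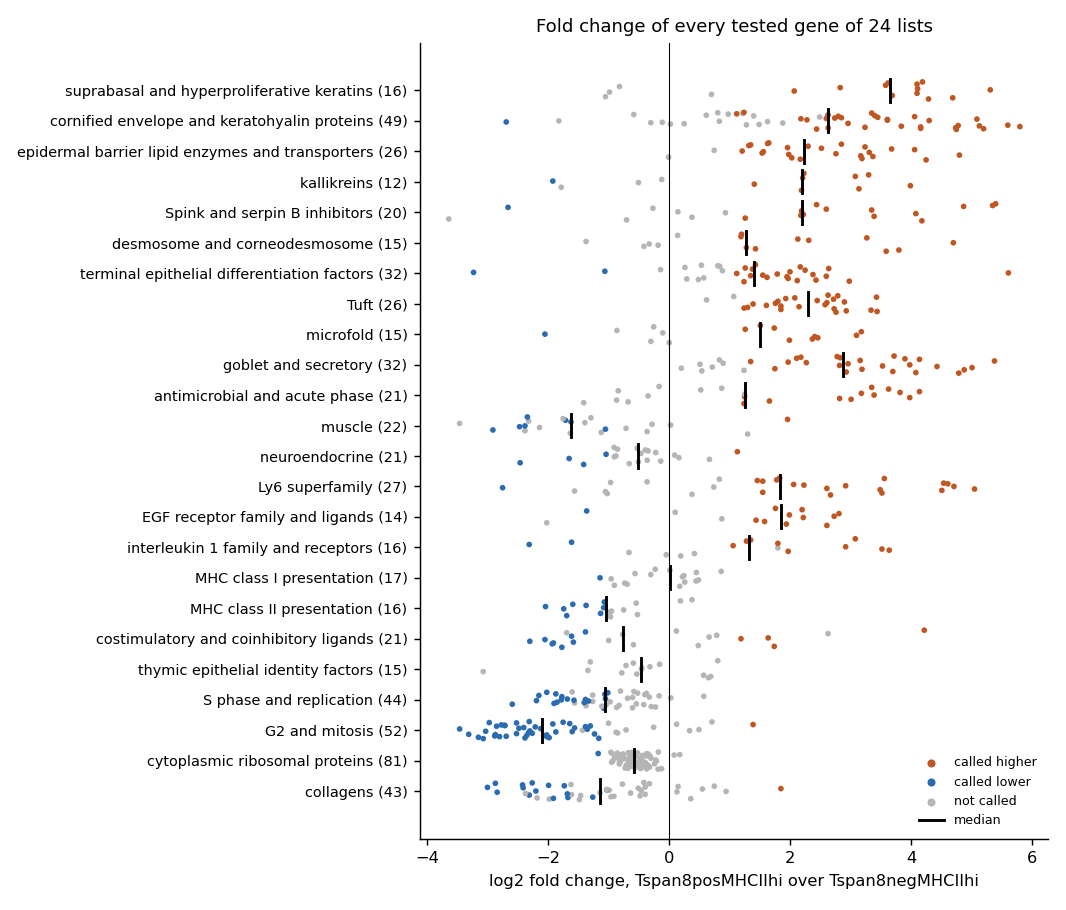
Log2 fold changes of the tested members of 24 gene lists, with a point for each gene, its colour showing whether it was called, and a bar at the median of the list. Keratin, cornified envelope, barrier lipid, Tuft and goblet lists have medians to the right of 0, and MHC class II, cell cycle, collagen and muscle lists have medians to its left.

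Genes of antigen presentation by MHC class II had 0 of 16 tested members called higher and 8 lower (median log2 fold change -1.03), and their summed level was 31156 and 31824 against 14998 and 15803 CPM. H2-Aa was at 4603 and 5060.5 against 2178 and 2238 CPM (log2 fold change -1.13 ± 0.12 (SE), edgeR adjusted p = 3.15e-05) and H2-Eb1 at 3672 and 3716 against 1752 and 1744 CPM (log2 fold change -1.08 ± 0.13 (SE), edgeR adjusted p = 9.62e-05). The peptide-loading regulators H2-Oa (244 and 266 against 103 and 94.9 CPM) and H2-DMb2 (638 and 652 against 180.2 and 206 CPM) were lower, as was H2-Eb2, which had the smallest adjusted p of the list (432 and 466 against 116 and 103 CPM, log2 fold change -2.04 ± 0.13 (SE), edgeR adjusted p = 9.25e-07). Ciita, the transactivator that class II transcription depends on, was at 347 and 359 against 100.2 and 119 CPM (log2 fold change -1.69 ± 0.13 (SE), edgeR adjusted p = 3.60e-06), and Rfx5, which binds class II promoters, at 151 and 144 against 66.9 and 73.96 CPM. Cd74, the invariant chain, was at 15078 and 15041 against 7464 and 7952 CPM and H2-DMa at 121 and 131 against 64.1 and 66.6 CPM, both inside the fold limit. Of the 16 tested members, 14 had a negative log2 fold change, and since cells were gated on surface MHCII these differences lie within the MHCIIhi gate. Rfx5 stood at -0.97 without Tspan8pos 1 and so inside the fold limit.

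Promoters of 2 class II genes are shown because both genes were lower and each holds a Y box, the class II element with an inverted CCAAT core bound by NF-Y. The sequences are RefSeq windows on GRCm38.p6 of the same extent as above, with the Y box (CTGATTGG, searched on both strands) in capitals. H2-Aa lies at chr17:34287819-34287973 on the minus strand and H2-Eb1 at chr17:34305717-34305871 on the plus strand.
H2-Aa: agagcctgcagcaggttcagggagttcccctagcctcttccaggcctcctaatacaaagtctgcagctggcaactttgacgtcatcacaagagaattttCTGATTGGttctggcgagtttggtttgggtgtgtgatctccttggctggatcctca
H2-Eb1: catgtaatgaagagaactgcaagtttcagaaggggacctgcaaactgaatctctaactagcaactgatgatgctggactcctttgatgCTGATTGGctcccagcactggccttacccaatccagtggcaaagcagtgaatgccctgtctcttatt
The Y box begins 51 bases before the start in H2-Aa and 62 in H2-Eb1. It was found in 4 of 12 class II list genes with a listed promoter (33.3%), in 6.11% of tested genes and in 8.75% of the genes called lower. The same letters were in 12 of 46 G2 and mitosis genes (26.1%), Cdk1 among them, and in 7 of 32 S phase genes (21.9%). They are therefore not particular to class II genes. CCAAT itself, which every Y box holds on the other strand, was found in 10 of the 12 class II genes (83.3%) and in 42.3% of tested genes. The median share of G and C bases was 51.3% for class II genes and 59.7% for all tested genes, and its part in these shares was not tested.

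MHC class I genes had 0 of 17 tested members called higher and 1 lower (median log2 fold change 0.016, and 0, 0, 1 and 0 higher without each library in turn, and 3, 1, 0 and 1 lower without each library in turn), with H2-K1 at 4346 and 4261 against 5697 and 6037 CPM, B2m at 2582 and 3062 against 3328 and 3056 CPM and the immunoproteasome subunit Psmb10 lower (193 and 191 against 76.1 and 97.9 CPM). The sign of the class I median and that of B2m changed with library totals in place of TMM. Cathepsins and their inhibitors had 5 of 18 tested members called higher and 0 lower (median log2 fold change 0.15), a list whose median also changed sign with library totals. Ctsd, a lysosomal aspartic protease, was at 98.2 and 124 against 684 and 659 CPM (log2 fold change 2.59 ± 0.18 (SE), edgeR adjusted p = 1.71e-06) and the inhibitor Cst6 at 52.2 and 63.1 against 352 and 447 CPM. Costimulatory and coinhibitory ligands had 4 of 21 tested members called higher and 8 lower (median log2 fold change -0.77, and 9, 8, 5 and 8 lower without each library in turn). Icosl was at 628 and 594 against 143 and 153 CPM (log2 fold change -2.05 ± 0.13 (SE), edgeR adjusted p = 9.96e-07), Cd40 at 218 and 204 against 57.95 and 52.2 CPM (log2 fold change -1.93 ± 0.15 (SE), edgeR adjusted p = 2.90e-06), Cd86 at 23.5 and 24.4 against 4.38 and 5.28 CPM and Cd80, a marker of mature mTECs, at 162 and 143 against 56.4 and 45.5 CPM (log2 fold change -1.58 ± 0.23 (SE), edgeR adjusted p = 0.00028). The higher members were Cd24a (138 and 165 against 535 and 481 CPM), Nectin2 (56.98 and 56.3 against 172 and 181 CPM), Lgals9 (54.9 and 63.1 against 123.5 and 146 CPM) and Vtcn1 (0.832 and 0.256 against 8.96 and 10.2 CPM). RANK, lymphotoxin receptor and NF-kB genes, the signalling route of mTEC maturation, had 2 of 26 tested members called higher and 2 lower (median log2 fold change -0.24, and 1, 2, 2 and 2 higher without each library in turn). The share called was 7.69% in each direction, beside 11.0% higher and 7.45% lower of all tested genes. Ltbr was at 27.04 and 30.8 against 104 and 118 CPM (log2 fold change 1.94 ± 0.18 (SE), edgeR adjusted p = 1.10e-05), Birc2 at 327 and 307 against 133 and 122.9 CPM and Tnfrsf11a, which encodes RANK, at 189 and 197 against 135 and 128 CPM without a call. With 1 library left out, the call was lost for Vtcn1 without Tspan8neg 2 (edgeR adjusted p = 0.0139). Psmb10 stood at -0.95 without Tspan8pos 1 and so inside the fold limit.

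Chemokines had 7 of 30 tested members called higher and 6 lower (median log2 fold change -0.27, and 5, 3, 3 and 2 lower without each library in turn). Higher members were the neutrophil attractant Cxcl5 (1.04 and 3.72 against 39.2 and 35.6 CPM) and the monocyte attractant Ccl9 (27.5 and 42.4 against 198 and 191 CPM, log2 fold change 2.46 ± 0.26 (SE), edgeR adjusted p = 3.14e-05). Lower members included Ccl22 (187 and 241 against 34.9 and 40.6 CPM, log2 fold change -2.50 ± 0.31 (SE), edgeR adjusted p = 9.57e-05), which attracts T cells through Ccr4, Ccl19 (153 and 169.6 against 50.4 and 64.2 CPM), which acts through Ccr7, and Cxcl10 (801 and 824 against 373 and 362 CPM). Niche cytokines and growth factors had 3 of 24 tested members called higher and 5 lower (median log2 fold change -0.0025). These are 12.5 and 20.8%, beside 11.0 and 7.45% of all tested genes. Il33 was at 2.495 and 5.13 against 37.8 and 30.3 CPM (log2 fold change 3.08 ± 0.33 (SE), edgeR adjusted p = 3.64e-05), the metabolic hormone Fgf21 at 310.1 and 284 against 70.7 and 79.4 CPM (log2 fold change -1.98 ± 0.14 (SE), edgeR adjusted p = 1.64e-06), Il12a at 63.2 and 69.2 against 14.5 and 21.3 CPM and Il15 at 29.3 and 34.4 against 9.36 and 9.75 CPM. The interleukin 1 family, including the IL-36 group of skin, had 9 of 16 tested members called higher and 2 lower (median log2 fold change 1.32, and 1, 1, 1 and 1 lower without each library in turn). Il1f5, an IL-36 receptor antagonist, was at 7.902 and 13.7 against 143 and 135 CPM (log2 fold change 3.64 ± 0.33 (SE), edgeR adjusted p = 1.02e-05), Il1f6 at 2.29 and 6.79 against 57.95 and 54.2 CPM, Il1f9 at 5.82 and 8.203 against 50.6 and 58.1 CPM and Il1rn at 189.9 and 225 against 619 and 440.3 CPM, and the decoy receptor Il1r2 was lower (58.02 and 50.2 against 9.36 and 12.4 CPM, log2 fold change -2.31 ± 0.22 (SE), edgeR adjusted p = 1.56e-05). EGF receptors and ligands had 10 of 14 tested members called higher and 1 lower (median log2 fold change 1.85). Hbegf was at 21.8 and 26.5 against 172 and 169 CPM (log2 fold change 2.81 ± 0.17 (SE), edgeR adjusted p = 5.58e-07), Areg at 9.15 and 13.1 against 69.1 and 69.3 CPM, Erbb3 at 75.9 and 68.8 against 373 and 302 CPM and Egfr at 43.05 and 32.3 against 130.04 and 94.1 CPM, and the neuregulin Nrg1 was lower (82.98 and 86.9 against 29.9 and 36.4 CPM). Interferon-stimulated genes had 10 of 43 tested members called higher and 4 lower (median log2 fold change 0.58, and 6, 8, 8 and 9 higher without each library in turn). Irf7 (52.4 and 58.7 against 207 and 224 CPM, log2 fold change 1.95 ± 0.14 (SE), edgeR adjusted p = 2.22e-06) and Isg15 (30.6 and 32.6 against 91.8 and 106 CPM) were higher and the guanylate-binding genes Gbp4, Gbp5, Gbp9 and Gbp10 were lower, with Gbp4 at 281 and 287 against 86.8 and 94.9 CPM, Gbp5 at 103 and 106 against 26.3 and 23.6 CPM, Gbp9 at 239 and 206 against 99.2 and 93.1 CPM and Gbp10 at 21.8 and 12.6 against 0 and 2.64 CPM. Gbp4 and Gbp9 overlap each other and Gbp8 on the same strand, and their values are uncertain. The call was lost for Cxcl10 without Tspan8pos 1 or Tspan8pos 2 (edgeR adjusted p up to 0.0195), Egfr without Tspan8neg 2 or Tspan8pos 1 (edgeR adjusted p up to 0.0293), Gbp9 without Tspan8pos 2 (edgeR adjusted p = 0.0101) and Gbp10 without Tspan8neg 1 (edgeR adjusted p = 0.0174). Gbp10 had 0 counts in the remaining library without Tspan8pos 2, so that no fold change is given.

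Genes of dividing cells were mostly lower in Tspan8posMHCIIhi mTECs. Genes of G2 and mitosis had 1 of 52 tested members called higher and 41 lower (median log2 fold change -2.09, and 1, 0, 1 and 1 higher without each library in turn). Cdk1, the kinase that drives entry into mitosis, was at 58.02 and 58.4 against 5.78 and 5.89 CPM (log2 fold change -3.31 ± 0.26 (SE), edgeR adjusted p = 3.20e-06), its cyclin Ccnb1 at 30.2 and 37.04 against 4.58 and 5.08 CPM (log2 fold change -2.80 ± 0.39 (SE), edgeR adjusted p = 0.000209), Mki67 at 273 and 239 against 48.4 and 62.2 CPM (log2 fold change -2.21 ± 0.24 (SE), edgeR adjusted p = 3.99e-05) and the mitotic kinase Plk1 at 27.5 and 33.2 against 4.98 and 3.86 CPM. Both Tspan8pos libraries lay far below both Tspan8neg libraries for these 4 genes, and separate groups were found for every called gene. Psrc1 was the higher member (16.6 and 13.97 against 38.04 and 41.5 CPM). Genes of S phase and replication had 0 of 44 tested members called higher and 18 lower (median log2 fold change -1.06, and 9, 12, 5 and 10 lower without each library in turn). Rrm2, a subunit of ribonucleotide reductase, was at 28.7 and 31.5 against 8.56 and 7.92 CPM (log2 fold change -1.87 ± 0.25 (SE), edgeR adjusted p = 0.000151) and Mcm3, a subunit of the replicative helicase, at 49.3 and 43.8 against 11.2 and 15.8 CPM (log2 fold change -1.78 ± 0.25 (SE), edgeR adjusted p = 0.000261), while Pcna, the sliding clamp, was at 102 and 104 against 85.4 and 78.6 CPM without a call. CDK inhibitors, D cyclins and p53 targets had 5 of 21 tested members called higher and 3 lower (median log2 fold change 0.063), and their median changed sign with library totals. The inhibitors Cdkn1a (189 and 178 against 717 and 709.9 CPM, log2 fold change 1.96 ± 0.12 (SE), edgeR adjusted p = 7.27e-07), Cdkn2a (17.1 and 16.4 against 67.7 and 77.8 CPM) and Cdkn2b (47.2 and 50.2 against 157 and 171 CPM) and Sfn (379.9 and 340.3 against 1397 and 1405 CPM) were higher, and Ccnd2, the D cyclin with the smallest adjusted p, was lower (496 and 462 against 104 and 103 CPM, log2 fold change -2.21 ± 0.13 (SE), edgeR adjusted p = 5.73e-07), as was Trp53 (239 and 193 against 102 and 100.2 CPM). The Bcl2 family had 4 of 22 tested members called higher and 1 lower (median log2 fold change 0.24, and 1, 2, 1 and 4 higher without each library in turn, and 0, 0, 0 and 0 lower without each library in turn), with the proapoptotic gene Pmaip1 at 155 and 181 against 429.6 and 358 CPM and Mcl1, a survival factor, at 292 and 302 against 411 and 374 CPM. Leaving out 1 library ended the call for Psrc1 without Tspan8neg 2 (edgeR adjusted p = 0.021).

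Promoters of Cdk1 and Ccnb1 are shown because both genes were lower and their windows hold the 2 elements known from cell cycle genes, the CHR (TTTGAA) in Cdk1 and CCAAT in Ccnb1. The RefSeq windows on GRCm38.p6 have the extent given above, with the element in capitals, and both genes are on the minus strand, Cdk1 at chr10:69352908-69353062 and Ccnb1 at chr13:100786482-100786636.
Cdk1: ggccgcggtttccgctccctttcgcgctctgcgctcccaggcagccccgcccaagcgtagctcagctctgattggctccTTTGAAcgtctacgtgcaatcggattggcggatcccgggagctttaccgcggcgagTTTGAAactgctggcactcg
Ccnb1: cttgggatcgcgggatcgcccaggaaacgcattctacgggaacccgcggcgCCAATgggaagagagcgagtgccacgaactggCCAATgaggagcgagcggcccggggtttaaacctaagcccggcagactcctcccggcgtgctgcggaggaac
In Cdk1 the CHR matches begin 71 and 15 bases before the start, and in Ccnb1 the CCAAT matches begin 99 and 67 bases before it. Each window has only its named element in capitals, and the Cdk1 window also holds CCAAT on the other strand (attgg, in lower case). With both strands searched in the longer windows, the CHR was found in 33 of 46 G2 and mitosis genes with a listed promoter (71.7%), in 15.2% of tested genes and in 20.4% of the genes called lower. CCAAT was found in 36 of the 46 (78.3%) and in 42.3% of tested genes. The E2F letters (TTTGGCGC, TTTCCCGC or TTTCGCGC) were found in 13 of 32 S phase genes (40.6%) and in 3.55% of tested genes.

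Lists of tissue-restricted antigens moved in both directions. Autoantigens of known autoimmune diseases had 3 of 25 tested members called higher and 5 lower (median log2 fold change -0.78, and 4, 2, 2 and 3 lower without each library in turn). Dsg3, Bpifb1, a lung antigen (17.1 and 18.6 against 119 and 154 CPM, log2 fold change 2.93 ± 0.24 (SE), edgeR adjusted p = 4.20e-06), and Iapp, an islet peptide (17.7 and 22.8 against 152 and 179 CPM, log2 fold change 3.01 ± 0.21 (SE), edgeR adjusted p = 1.30e-06), were higher, and Gad1 (35.4 and 36.02 against 10.6 and 10.2 CPM, log2 fold change -1.78 ± 0.22 (SE), edgeR adjusted p = 0.0001), Th (14.6 and 16.1 against 2.59 and 3.05 CPM), the thyroid antigen Tg (16.6 and 20.6 against 3.19 and 2.64 CPM) and the liver enzyme Cyp1a2 (24.5 and 30.5 against 3.58 and 2.23 CPM, log2 fold change -3.23 ± 0.37 (SE), edgeR adjusted p = 8.10e-05) were lower. Milk proteins had 0 of 4 tested members called higher and 2 lower (median log2 fold change -1.68, and 1, 1, 1 and 1 lower without each library in turn), and the casein Csn2 was at 682 and 847 against 238 and 254 CPM (log2 fold change -1.64 ± 0.21 (SE), edgeR adjusted p = 0.000133). Peptide hormones had 1 of 28 tested members called higher and 6 lower (median log2 fold change -1.02, and 4, 2, 3 and 2 lower without each library in turn). Calca, which encodes calcitonin, was at 106 and 102 against 37.4 and 35.96 CPM (log2 fold change -1.50 ± 0.15 (SE), edgeR adjusted p = 2.30e-05), Pomc at 41.4 and 47.2 against 8.96 and 7.52 CPM, Pdyn, an opioid precursor, at 51.6 and 50.9 against 10.2 and 5.69 CPM (log2 fold change -2.69 ± 0.33 (SE), edgeR adjusted p = 8.06e-05) and Gip at 17.3 and 22.9 against 6.57 and 7.72 CPM. Pancreatic genes had 4 of 13 tested members called higher and 1 lower (median log2 fold change 0.81, and 2, 2, 3 and 2 higher without each library in turn, and 0, 0, 0 and 0 lower without each library in turn), with the trypsinogen Prss2 (8.32 and 7.95 against 19.9 and 24.2 CPM) higher and the elastase Cela3b lower (6.03 and 5.26 against 0.597 and 0.406 CPM). Germline genes had 1 of 11 tested members called higher and 3 lower (median log2 fold change -1.81, and 0, 0, 0 and 0 lower without each library in turn), with Rec8, a meiotic cohesin, at 7.07 and 6.02 against 20.1 and 22.1 CPM and the egg coat gene Zp2 at 86.9 and 77.5 against 101 and 85.3 CPM without a call. Cytochrome P450 genes had 15 of 52 tested members called higher and 2 lower (median log2 fold change 0.77, and 9, 10, 12 and 12 higher without each library in turn, and 2, 2, 1 and 2 lower without each library in turn). Cyp2a5 (219 and 263 against 2980.1 and 2509 CPM, log2 fold change 3.51 ± 0.26 (SE), edgeR adjusted p = 2.17e-06), Cyp2f2 (11.6 and 16.8 against 492 and 443 CPM, log2 fold change 5.01 ± 0.21 (SE), edgeR adjusted p = 1.75e-07) and Cyp2b19, a P450 of skin (19.5 and 27.9 against 699 and 766 CPM), were higher, and Cyp26a1, which breaks down retinoic acid, was lower (44.5 and 42.9 against 17.3 and 17.9 CPM). Major urinary, secretoglobin and odorant-binding genes had 3 of 15 tested members called higher and 0 lower (median log2 fold change -0.77, and 0, 0, 1 and 0 lower without each library in turn). Of 94 olfactory and vomeronasal receptors, 8 could be tested and 0 passed the call. With 1 library left out, the call was lost for Th without Tspan8neg 2 or Tspan8pos 1 (edgeR adjusted p up to 0.0178), Tg and Pomc without Tspan8neg 2, Tspan8pos 1 or Tspan8pos 2 (edgeR adjusted p up to 0.0273), Gip and Cela3b without any 1 of the 4 libraries (edgeR adjusted p up to 0.0795), Prss2 without Tspan8neg 1, Tspan8neg 2 or Tspan8pos 2 (edgeR adjusted p up to 0.0366) and Cyp26a1 without Tspan8pos 1 (edgeR adjusted p = 0.0112).

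Metabolic gene groups differed in direction. Cytoplasmic ribosomal proteins had 0 of 81 tested members called higher and 1 lower (median log2 fold change -0.57, and 4, 4, 3 and 1 lower without each library in turn), and 42 of them were lower and 0 higher at an adjusted p under 0.01 with no limit on the fold, against 10% of all tested genes lower at that limit. Their summed level was 28642 and 29007 against 19051 and 18944 CPM, and Rplp0 was at 1083 and 1138 against 678 and 715 CPM and Rps4x at 611 and 618 against 286 and 259 CPM (log2 fold change -1.17 ± 0.13 (SE), edgeR adjusted p = 4.02e-05). Serine and one-carbon enzymes had 0 of 17 tested members called higher and 4 lower (median log2 fold change -0.72). Phgdh, the first enzyme of serine synthesis, was at 440.2 and 387 against 63.9 and 78.4 CPM (log2 fold change -2.54 ± 0.15 (SE), edgeR adjusted p = 5.90e-07), Shmt2 at 69.9 and 61.1 against 15.1 and 21.9 CPM and Mthfd2 at 28.5 and 28.2 against 6.17 and 8.94 CPM. Nuclear genes of oxidative phosphorylation had 2 of 76 tested members called higher and 0 lower (median log2 fold change 0.14, and 1, 1, 1 and 2 higher without each library in turn) and a median that changed sign with library totals. Mitochondrially encoded genes had 0 of 13 tested members called higher and 0 lower (median log2 fold change 0.41, and 0, 1, 0 and 0 higher without each library in turn, and 0, 0, 0 and 1 lower without each library in turn), with mt-Co1 at 2342 and 2934 against 3117 and 2805 CPM. Genes of the unfolded protein response had 2 of 24 tested members called higher and 3 lower (median log2 fold change -0.043). These are 8.33 and 12.5%, beside 11.0 and 7.45% of all tested genes. Xbp1, its transcription factor, was at 102 and 97.5 against 252 and 287 CPM (log2 fold change 1.44 ± 0.13 (SE), edgeR adjusted p = 1.15e-05), and the chaperone Hsp90b1 at 1996 and 1969 against 935 and 846 CPM (log2 fold change -1.16 ± 0.14 (SE), edgeR adjusted p = 6.44e-05). Sterol and fatty acid synthesis had 7 of 27 tested members called higher and 0 lower (median log2 fold change 0.40, and 3, 5, 4 and 5 higher without each library in turn), Elovl6 being at 19.3 and 16.5 against 84.6 and 71.1 CPM and Scd1 at 152 and 188 against 477 and 438 CPM. Glutathione and detoxification genes had 21 of 64 tested members called higher and 2 lower (median log2 fold change 0.60, and 2, 1, 2 and 2 lower without each library in turn). Gsta4, a glutathione transferase, was at 17.1 and 22.8 against 613 and 529.5 CPM (log2 fold change 4.82 ± 0.20 (SE), edgeR adjusted p = 1.75e-07), Gsto1 at 13.1 and 17.6 against 506 and 398 CPM (log2 fold change 4.86 ± 0.28 (SE), edgeR adjusted p = 5.15e-07), and Gstm3 was lower (34.3 and 46.1 against 4.98 and 7.31 CPM).

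Among surface proteins, tetraspanins other than Tspan8 were also called, and the family had 8 of 30 tested members called higher and 2 lower (median log2 fold change 0.25, and 5, 6, 6 and 6 higher without each library in turn, and 0, 0, 1 and 0 lower without each library in turn) with Tspan8, on which the cells were sorted, included. Tspan1 was at 17.3 and 27.6 against 280.4 and 289 CPM (log2 fold change 3.64 ± 0.22 (SE), edgeR adjusted p = 6.32e-07), Tspan15 at 11.02 and 12.6 against 68.5 and 69.9 CPM and Cd9 at 147 and 140.1 against 333 and 316 CPM, and Tspan18 (28.9 and 29.1 against 8.56 and 9.55 CPM) and Tspan33 (24.95 and 24.9 against 9.36 and 7.31 CPM) were lower. Cd82 had overlapping groups at 523 and 515 against 512 and 517 CPM. The Ly6 superfamily of small anchored proteins had 18 of 27 tested members called higher and 1 lower (median log2 fold change 1.83). Lypd3 was at 15.6 and 17.7 against 448 and 368 CPM (log2 fold change 4.61 ± 0.19 (SE), edgeR adjusted p = 1.75e-07), Ly6d at 72.2 and 98.7 against 969 and 992 CPM, Ly6e at 743 and 855 against 2307 and 2364 CPM (log2 fold change 1.55 ± 0.12 (SE), edgeR adjusted p = 3.30e-06) and the nicotinic receptor ligand Slurp1 at 5.41 and 7.82 against 76.5 and 84.1 CPM, and Ly6h, known from neurons, was lower (52.8 and 43.6 against 6.77 and 7.52 CPM). Mucins and Ceacam genes had 10 of 21 tested members called higher and 4 lower (median log2 fold change 1.20, and 6, 7, 6 and 9 higher without each library in turn, and 2, 0, 0 and 0 lower without each library in turn). Ceacam1 was at 16.2 and 20.6 against 239.6 and 245 CPM (log2 fold change 3.70 ± 0.16 (SE), edgeR adjusted p = 1.75e-07) and Muc13 at 81.3 and 95.4 against 661 and 721 CPM. Ephrins and their receptors had 8 of 22 tested members called higher and 3 lower (median log2 fold change 0.48, and 0, 1, 0 and 0 lower without each library in turn), with Efna3 at 1.87 and 1.15 against 71.9 and 82.9 CPM (log2 fold change 5.73 ± 0.25 (SE), edgeR adjusted p = 1.75e-07) and Efnb2 at 80.9 and 78.7 against 247 and 222 CPM. Leaving out 1 library ended the call for Tspan18 without any 1 of the 4 libraries (edgeR adjusted p up to 0.029) and Tspan33 without Tspan8neg 1, Tspan8neg 2 or Tspan8pos 2 (edgeR adjusted p up to 0.0197).

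Notch genes had 7 of 21 tested members called higher and 2 lower (median log2 fold change 0.24, and 0, 0, 0 and 1 lower without each library in turn). The receptor Notch3 was at 11.02 and 13.3 against 76.9 and 80.3 CPM, the ligand Jag1 at 35.98 and 53.4 against 188 and 189.98 CPM, and the targets Hes1 and Nrarp at 10.4 and 12.05 against 52.8 and 65.02 CPM and 7.07 and 12.9 against 65.9 and 79.2 CPM (log2 fold change 2.81 ± 0.24 (SE), edgeR adjusted p = 5.69e-06), and the lower members were Mfng, which modifies the receptors (29.5 and 28.6 against 9.16 and 13.8 CPM), and Dll3 (7.28 and 8.46 against 1.99 and 2.03 CPM). Notch1 was at 163 and 139 against 169 and 188 CPM without a call. Wnt genes had 4 of 43 tested members called higher and 9 lower (median log2 fold change -0.17, and 4, 5, 4 and 4 lower without each library in turn). The share of Wnt genes called was 9.3% higher and 20.9% lower, beside 11.0 and 7.45% of all tested genes. Wnt7b was higher (3.54 and 4.36 against 37.4 and 40.6 CPM, log2 fold change 3.28 ± 0.21 (SE), edgeR adjusted p = 9.25e-07), as was Porcn, which attaches the lipid of Wnt proteins (2.29 and 2.31 against 16.3 and 19.1 CPM), and Wnt10b (79.03 and 71.4 against 8.96 and 8.74 CPM, log2 fold change -3.08 ± 0.18 (SE), edgeR adjusted p = 5.38e-07) and the Wnt binder Sfrp1 (137 and 127 against 36.6 and 41.7 CPM) were lower. Collagens had 1 of 43 tested members called higher and 15 lower (median log2 fold change -1.14). Col6a5 was at 164 and 155 against 29.7 and 30.1 CPM (log2 fold change -2.42 ± 0.15 (SE), edgeR adjusted p = 7.70e-07), Col5a2 at 119.99 and 118 against 17.3 and 12.4 CPM, Col1a1 at 88.6 and 91.3 against 19.3 and 16.9 CPM and Col4a1, a chain of the basement membrane, at 331 and 286 against 162 and 149 CPM, and Col4a5 was higher (7.07 and 11.4 against 35.8 and 32.3 CPM). The call was lost for Jag1 without Tspan8neg 1 (edgeR adjusted p = 0.011), Mfng without Tspan8neg 1, Tspan8neg 2 or Tspan8pos 1 (edgeR adjusted p up to 0.0261), Dll3 without any 1 of the 4 libraries (edgeR adjusted p up to 0.0624) and Col1a1 without Tspan8pos 1 or Tspan8pos 2 (edgeR adjusted p up to 0.0168).

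Markers of other cell types were measured as a check of the gate, which selects against CD45pos leukocytes, Epcamneg stromal cells and CDR1pos cortical epithelium. The 14 thymocyte markers summed to 90.3 and 181 against 97.4 and 152 CPM, and 0 of those tested passed the call. B cell markers summed to 125 and 176 against 58.4 and 85.9 CPM, with 0 of 11 tested members called higher and 1 lower (median log2 fold change -1.35, and 0, 0, 0 and 0 lower without each library in turn). Dendritic and myeloid markers summed to 589 and 666 against 547 and 592 CPM, with 2 of 14 tested members called higher and 4 lower (median log2 fold change -0.84, and 3, 2, 2 and 4 lower without each library in turn). Itgam was higher (13.7 and 22.6 against 144 and 164 CPM, log2 fold change 3.06 ± 0.25 (SE), edgeR adjusted p = 3.93e-06) and Ccr7 (150.4 and 143 against 45.2 and 47.95 CPM, log2 fold change -1.65 ± 0.15 (SE), edgeR adjusted p = 1.07e-05) and Adgre1 (15.2 and 23.1 against 1.99 and 4.47 CPM) were lower. Fibroblast markers summed to 648 and 642 against 162 and 178 CPM, with 0 of 11 tested members called higher and 4 lower (median log2 fold change -0.71, and 2, 2, 1 and 1 lower without each library in turn), Vim being at 360.2 and 355 against 55.4 and 62.4 CPM (log2 fold change -2.60 ± 0.21 (SE), edgeR adjusted p = 3.60e-06) and Pdgfrb at 59.3 and 47.8 against 20.7 and 23.4 CPM. These markers moved in the same direction as the collagens, and Col1a1, Col1a2 and Col3a1 are on both lists. On the fibroblast list, Pdgfra, Lum and Dpt lay between 0.208 and 1.22 CPM in all 4 libraries. Members called lower also included Thy1 (log2 fold change -2.02), whose call was lost without any 1 of the 4 libraries. All collagens together summed to 2361 and 2213 against 1121 and 1095 CPM, and the part of fibroblast markers in the collagen values was not tested. Endothelial markers summed to 90.05 and 91.5 against 94.99 and 81.7 CPM, with 0 of 8 tested members called higher and 0 lower (median log2 fold change -0.81), and erythroid markers to 65.1 and 71.8 against 34.1 and 45.5 CPM, with 0 of 6 tested members called higher and 1 lower (median log2 fold change -0.94, and 0, 0, 0 and 0 lower without each library in turn). Cortical epithelial markers had 1 of 12 tested members called higher and 1 lower (median log2 fold change -0.72, and 0, 0, 0 and 1 higher without each library in turn, and 2, 1, 1 and 1 lower without each library in turn). The cortical proteasome gene Psmb11 was at 4.78 and 8.97 against 4.18 and 6.096 CPM, Slc46a2 was higher (42.01 and 45.1 against 89.02 and 85.7 CPM) and Cd83, which mature mTECs also express, was lower (63.6 and 72.7 against 14.1 and 17.1 CPM). With 1 library left out, the call was lost for Adgre1 without Tspan8neg 2 or Tspan8pos 1 (edgeR adjusted p up to 0.0363), Pdgfrb without any 1 of the 4 libraries (edgeR adjusted p up to 0.0684) and Slc46a2 without Tspan8neg 1, Tspan8neg 2 or Tspan8pos 1 (edgeR adjusted p up to 0.0134).

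Called genes lay next to each other in places. Runs of at least 4 neighbouring tested genes all called in 1 direction numbered 26, of which 21 were higher (95 genes) and 5 lower (20 genes). On GRCm38, the longest were the IL-36 cluster at chr2:24186476-24414954 (Il1f9, Il1f6, Il1f5, Il1f10, Il1rn and Psd4, log2 fold changes between 1.35 and 3.64) and the kallikreins Klk11 to Klk6 at chr7:43774604-43832030 (between 2.19 and 3.30). Others held 5 serpin B genes at chr1:107045587-107535478, Slurp1, Lypd2, Slurp2, Lynx1 and Ly6d at chr15:74724318-74763620, 5 ribonuclease A genes at chr14:51091077-51199148, Hrnr, Gm37857, Rptn and Tchh at chr3:93319749-93449077, and Cyp2b19, Cyp2g1, Cyp2a5 and Cyp2f2 at chr7:26757142-27133660 (between 2.97 and 5.01). Not all higher runs were gene families, and 1 held Card19, Fgd3, Bicd2 and Ippk at chr13:49202950-49464573 (between 1.71 and 2.24). A lower run held Pfkl, Aire, Dnmt3l and Icosl at chr10:77986947-78083913 (between -2.44 and -1.02). No background was computed for the number of runs. Without each library in turn, 6, 8, 9 and 10 of the higher runs and 0, 2, 0 and 2 of the lower runs had every gene still called. Il1f10, Slurp2, Gm37857 and the serpins Serpinb3a and Serpinb3c lost their call without any 1 of the 4 libraries, Rnase2b without Tspan8neg 1, Tspan8neg 2 or Tspan8pos 1, Klk10 and Pfkl without Tspan8neg 1 or Tspan8pos 1, and Klk9 without Tspan8neg 1, while the Cyp2 run had every gene still called in each case. Neighbours that overlap or are copies of each other may share reads, and so may members of the Gsdmc, Gbp, Cyp2, Saa, Ly6 and keratin families elsewhere in the text. Without a settled strand, reads cannot be told apart from those of an overlapping gene on the opposite strand for Tspan8, Aire, Krt10, Krt6a, Krt80, Krt5, Jun, Dsp, Nid1, Nid2, Ovol1, Cebpa, Maf, Elf3, Klf3, Sirt1, Dnmt3l, Dclk1, Trpm5, Avil, Alox5ap, Cftr, Ttn, H2-Oa, Ciita, Rfx5, H2-DMa, Nectin2, Cxcl10, Nrg1, Irf7, Plk1, Cdkn1a, Ccnd2, Tg, Cyp2f2, Shmt2, mt-Co1, Hsp90b1, Elovl6, Cd9, Lypd3, Slurp1, Muc13, Efna3, Notch3, Nrarp, Notch1, Wnt7b and Col4a1, nor from those of a gene on the same strand for Sbsn, Rptn, Serpinb2, Top2a, Parp1, Cd74, Ctsd, Gbp4, Gbp9, Gbp10, Hsp90b1, Tspan15 and Itgam.

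The Tspan8 difference within MHCIIhi was compared with that within MHCIIlo by an interaction contrast, the log2 fold change in MHCIIhi minus that in MHCIIlo. The paper describes Tspan8negMHCIIlo cells as a mixture of immature and mimetic mTECs, and Tspan8negMHCIIhi cells as mature mTECs. The reference cells therefore differ between the compartments, and their part in an interaction was not tested. For genes lower in Tspan8pos cells of both compartments, a positive value is a smaller drop in MHCIIhi. The interaction was called higher for 381 genes (2.24%) and lower for 402 (2.36%). Of the 1876 genes called higher in MHCIIhi, 1223 were also called higher in MHCIIlo and 17 were called lower there, and the interaction was called for 247. Of the 1267 genes called lower, 555 were also called lower in MHCIIlo and 24 were called higher, and the interaction was called for 97. A call in 1 compartment alone does not show a difference between them, which only the interaction tests. Replicates agreed least in Tspan8negMHCIIlo, with r = 0.952 for log2 CPM and an SD of the log2 difference of 0.766. In Tspan8posMHCIIlo these were 0.964 and 0.703, and in Tspan8negMHCIIhi and Tspan8posMHCIIhi the SDs were 0.476 and 0.576. All groups enter the shared estimate of the spread. The MHCIIlo libraries held between 1941518 and 7783841 counts, Tspan8posMHCIIlo replicate 1 being the smallest, and without it 147 genes were called higher and 178 lower in the interaction. Leaving out Tspan8posMHCIIlo replicate 2 gave 79 and 110, Tspan8negMHCIIlo replicate 1 gave 705 and 524, and Tspan8negMHCIIlo replicate 2 gave 756 and 629. Leaving out an MHCIIhi library in the order above gave 100, 118, 137 and 141 higher and 194, 155, 134 and 160.0 lower.

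The basal keratins Krt5 and Krt14 had a called interaction. Krt5 was higher by 2.53 in MHCIIhi against -0.30 in MHCIIlo (interaction 2.83 ± 0.24 (SE)), and Krt14 had 0.44 against -1.85 (interaction 2.29 ± 0.33 (SE)). Krt17 had 1.55 against 1.22 (interaction adjusted p = 0.321 in edgeR's test) and Krt15 1.56 against 2.56 (interaction adjusted p = 0.0435 in edgeR's test), both without an interaction call. Late keratinocyte and mucosal genes with a negative interaction included Krt4 (2.07 against 5.82, interaction -3.75 ± 0.42 (SE)), Krt79 (interaction -2.54 ± 0.25 (SE)), Klk7 (interaction -3.38 ± 0.27 (SE)) and the mucin Muc5ac (interaction -3.53 ± 0.40 (SE)). For Hal, the histidine-degrading enzyme of cornifying skin, 0.75 was measured in MHCIIhi and 4.61 in MHCIIlo (interaction -3.86 ± 0.24 (SE)). The interaction was positive for Notch3 (interaction 2.83 ± 0.44 (SE)), Ly6a (interaction 2.26 ± 0.24 (SE)), the complement gene C3 (interaction 1.72 ± 0.25 (SE)) and Ifit3 (interaction 2.56 ± 0.37 (SE)). Of 43 interferon-stimulated genes, 12 had a higher interaction call, a count that was 2, 4, 4 and 3 without an MHCIIhi library in the order above, 14 and 19 without Tspan8negMHCIIlo 1 and 2, and 4 and 2 without Tspan8posMHCIIlo 1 and 2. Myh3 (interaction -4.06 ± 0.47 (SE)) and Csn2 (interaction -2.73 ± 0.31 (SE)) were lower in Tspan8pos cells of MHCIIhi and had 1.59 and 1.09 in MHCIIlo. For Cd80 the values were -1.58 in MHCIIhi and 0.39 in MHCIIlo (interaction -1.97 ± 0.39 (SE)), whereas for Tspan8 itself they were 5.56 and 5.24 (interaction adjusted p = 0.745 in edgeR's test). The interaction call was lost for Krt14 without Tspan8neg 2, Tspan8pos 1 or Tspan8posMHCIIlo 2 (edgeR adjusted p up to 0.0178), Notch3 and Cd80 without Tspan8neg 1, Tspan8neg 2, Tspan8pos 1, Tspan8pos 2, Tspan8posMHCIIlo 1 or Tspan8posMHCIIlo 2 (edgeR adjusted p up to 0.0738), C3 without Tspan8neg 1, Tspan8pos 1, Tspan8posMHCIIlo 1 or Tspan8posMHCIIlo 2 (edgeR adjusted p up to 0.0183), Ifit3 without Tspan8neg 1, Tspan8neg 2, Tspan8pos 1 or Tspan8posMHCIIlo 2 (edgeR adjusted p up to 0.0204) and Myh3 without Tspan8posMHCIIlo 2 (edgeR adjusted p = 0.0311).

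**Figure D4:**
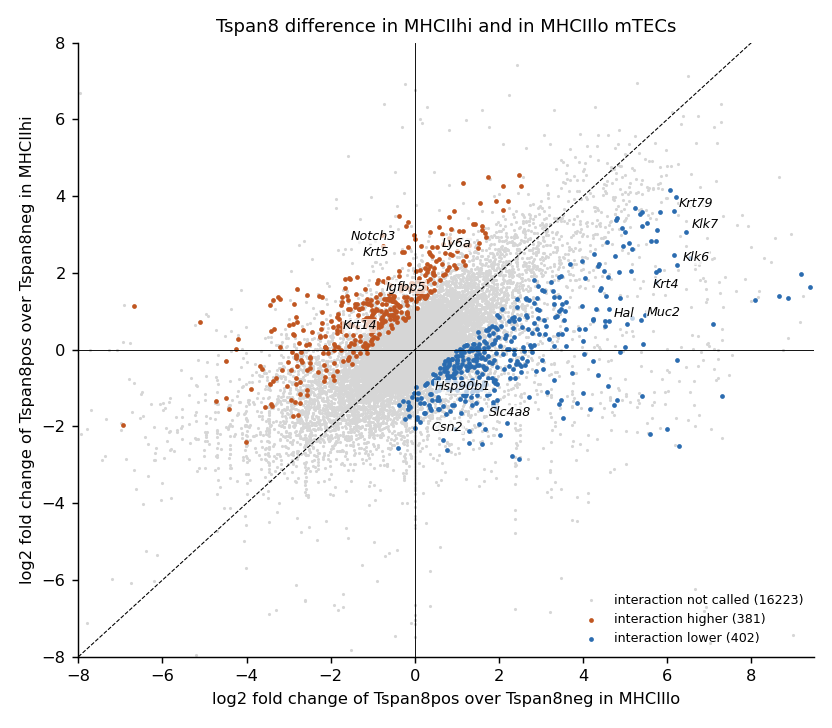
Log2 fold change of Tspan8pos over Tspan8neg in MHCIIhi (vertical axis) against the same in MHCIIlo (horizontal axis) for tested genes, with the 381 and 402 genes of a called interaction in colour and the line of equal differences dashed. Genes without a call spread about the line, Krt5, Notch3 and Ly6a lie above it and Klk7, Krt4, Csn2 and Slc4a8 below it, and 40 genes outside the axes, 4 of them with a called interaction, are not drawn.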

How the data were processed

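Bulk RNA-seq libraries of 4 sorted mTEC subsets of wild-type mice, 2 per subset, were used. The deposited values are estimated counts per gene, which the authors obtained with Salmon 1.8.0 (GRCm38/mm10, Gencode), normalised and tested with DESeq2 1.30.0 after FastQC. Here the estimated counts were rounded and fitted for all 8 libraries together with edgeR 4.0.16 (quasi-likelihood test, TMM, filterByExpr, Benjamini-Hochberg) in R 4.3.3 with limma 3.58.1. Depth was between 1941518 and 7783841 counts per library and the biological coefficient of variation was 15.5%. With 2 against 2 libraries an exact permutation test cannot reach 0.05, so none is given. Values are CPM with TMM factors and are not corrected for length, so levels are not compared between genes. Floors of 3 counts cover counting error only. Symbols and coordinates came from GENCODE M21 for 25336 of 25466 identifiers, and 130 stayed unmatched.

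Members and gene lists were chosen with earlier results of these data known. Named genes were the markers of sort and maturation, for each direction the 10 calls of lowest adjusted p (mean of at least 10 CPM) and the 10 with the largest difference in CPM, in each list up to 6 called members with the largest fold change (mean of at least 10 CPM), the member with the highest mean CPM and called members against the list's main direction, the 10 genes with the smallest interaction p that were also called in MHCIIhi, and genes of neighbour runs. Some list members outside this rule are named to show a level or a role. Ivl, Krt10 and Cd80 are among the markers.

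In simulated data 200 genes were changed, with rises and falls equally likely, and 16307 genes passed the filter. The MHCIIhi contrast recovered 84.3% of 4-fold and 30.4% of 2-fold changes with 1 false call, and the interaction 67.6% and 17.4% with 0. The simulated spread followed the level alone, and the 3143 calls in the real data far exceed the changed genes. The false calls therefore do not measure the error in the real data. The labels name a stranded kit and the methods another preparation, so the strand was not taken as settled. Alternatives were DESeq2 1.42.0, its size factors, other filters and thresholds, the 4 MHCIIhi libraries alone, the replicate number as a block and leaving out each library, where the lone library is assumed to vary like the others. Library totals without TMM and leaving out each MHCIIlo library were added after seeing the data. Promoter windows were RefSeq sequences of GRCm38.p6, available for 12468 tested genes.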

Additional observations from a re-analysis of the deposited data

Results flagged for a closer look

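The Tspan8 difference was not the same in the MHCIIhi and MHCIIlo compartments for 783 genes, tested by the interaction in edgeR's fit of all 8 libraries, with 381 genes higher and 402 lower in the MHCIIhi difference minus the MHCIIlo difference. The Tspan8neg reference cells also differ in their mix of mTEC stages between the compartments, and the part of this in the values below was not tested. The 10 genes below had the smallest interaction p among genes also called in MHCIIhi, and each kept its interaction call without any 1 of the 8 libraries (highest edgeR adjusted p = 0.00307).

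Krt5, a basal keratin, had a log2 fold change of 2.53 in MHCIIhi and -0.30 in MHCIIlo, an interaction of 2.83, and between 2.55 and 3.10 with 1 library left out. The insulin-like growth factor binding genes Igfbp5 and Igfbp4 had 1.45 and 1.39 in MHCIIhi and -0.82 and -1.61 in MHCIIlo, with interactions of 2.27 and 3.01. Boc, a co-receptor of hedgehog signalling, had 1.42 against -2.56 and an interaction of 3.97. All 4 genes were called higher in MHCIIhi and had negative values in MHCIIlo. The MHCIIhi call of Boc was lost without Tspan8neg 1, Tspan8neg 2 or Tspan8pos 2 (edgeR adjusted p up to 0.0244).

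Klk7, the kallikrein of shedding skin, was 3.08 in MHCIIhi and 6.46 in MHCIIlo, with an interaction of -3.38. Me1, malic enzyme, had 1.06 against 3.48 and an interaction of -2.42, and Plekhs1 had 1.01 against 3.57 and an interaction of -2.56. Slc4a8, a bicarbonate transporter, and Ankrd33b had -1.54 and -1.60 in MHCIIhi and 1.58 and 0.84 in MHCIIlo, with interactions of -3.12 and -2.44. The unnamed gene ENSMUSG00000109486.1 had -1.21 against 5.41 and an interaction of -6.62, where both Tspan8negMHCIIlo libraries lay under the floor of 3 counts at 0.562 and 0.236 CPM (against 16.5 and 18.0 CPM), so that the MHCIIlo value and the interaction are fitted values and no measured fold. Its MHCIIhi call was lost without Tspan8neg 1, Tspan8neg 2 or Tspan8pos 1 (edgeR adjusted p up to 0.0699). In MHCIIhi, Plekhs1 stood at 0.92 and 0.94 without Tspan8neg 1 and Tspan8neg 2, and Me1 at 0.90 without Tspan8neg 1, and so inside the fold limit.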

How the results depend on the processing

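No called gene changed sign under any alternative run. Of the 3143 genes called in MHCIIhi, 2667 were also called by DESeq2, 3018 with DESeq2 size factors, 2797 with library totals, 3074 with the replicate block, and between 1984 and 2179 with 1 MHCIIhi library left out. Genes called lower numbered 1918 with the 4 MHCIIhi libraries alone (2045 higher) and 1959 at an adjusted p under 0.05, and with a log2 fold limit of 2 the calls were 823 higher and 492 lower. Leaving out 1 of the 8 libraries gave between 565 and 1573 lower and between 1312 and 2088 higher.

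The interaction gave 591 higher and 676 lower with no filter on low counts, 881 and 873 at an adjusted p under 0.05, 165 and 210.0 at a log2 fold limit of 2, and with 1 library left out between 79 and 756 higher and between 110.0 and 629 lower. With the replicate block it gave 666 higher and 570.0 lower, and the MHCIIhi contrast 1927 and 1341. Same-numbered libraries shared deviations with r between 0.00402 and 0.0924, so the number was not taken to pair them. The cause of these moves was not tested, apart from the filter and thresholds, which set how many genes can pass. No value is given for the interaction with the 4 MHCIIhi libraries alone, since it needs the others.

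Of 489 genes named by the rule or as list members, 424 were called, and sign changes were limited to genes without a call. With library totals the log2 fold change was -0.141 for Vmn1r58, -0.0163 for mt-Co1, -0.0341 for Scd2 and -0.00461 for B2m, and Vmn1r58 had -0.0303 by DESeq2 and -0.0222 with its size factors. With 1 of the 8 libraries left out the log2 fold change ran from -0.30 to 0.287 for Vmn1r58, from -0.187 to 0.759 for Ptprc, from -0.118 to 0.0278 for Alox12e, from -0.0984 to 0.0168 for Cd82, from -0.0655 to 0.263 for mt-Co1, from -0.0187 to 0.249 for B2m, from -0.879 to 0.0282 for Psmb11 and from -0.173 to 0.0885 for Casp4. Depth limits genes near the floor of 3 counts, among them most taste, olfactory and vomeronasal receptors.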
